A study of Mus musculus with 42 samples.

Results

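Cd55, Cd59a, Cd46 and Cr1l are the genes of 4 membrane proteins that protect mouse cells from their own complement, and they are described here across uterine tissue-resident NK (trNK) cells. They were taken as a named list, not by their values, and are 4 of the 54353 genes counted in every bulk library and 4 of the 35237 genes of the single-cell matrix. Cd55 has a second role in the study, since surface CD55 and 4-1BB (the product of Tnfrsf9) were the proteins by which trNK subsets were sorted. Its values and those of Tnfrsf9 in the sorted subsets are therefore given as a description with no test. The input of the cultures had also been sorted as low in CD55, and all culture groups shared that input.

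All 34 bulk RNA-Seq libraries came from wild-type C57BL/6 adult female mice and formed 4 experiments with 2 libraries in each of 17 groups. For gestation, trNK cells (CD45+NK1.1+NKp46+CD49a+CXCR6-) were sorted from the uterus of virgin mice and of mice at gestation day (gd) 6.5 and gd8.5. For the subsets, trNK cells at gd8.5 were split by CD55 and 4-1BB staining into trNK-V (both low), trNK-D (both intermediate) and trNK-T (both high). For the culture, trNK-V cells, thus cells sorted as low in CD55 and 4-1BB, were taken from gd6.5 mice by the study's text (the labels say only trNK). They were kept for 3 days as a control, with 20 ng/mL IL-21, or with 20 ng/mL IL-21 and 1 µM Stattic, an inhibitor of STAT3, the transcription factor through which IL-21 signals, and live NK1.1+ cells were sorted again. By the study's methods every culture medium, the controls included, held IL-15. The time course sampled cells of the same kind, by the study's text also trNK-V of gd6.5 mice, at 0, 6, 24 and 72 h, with 10 ng/mL IL-15 in all groups by the sample labels and with or without 20 ng/mL IL-21. Single cells were live CD45+NK1.1+NKp46+ uterine cells of wild-type virgin and gd8.5 mice, also adult C57BL/6 females by the study's methods. The labels do not say whether replicates came from separate mice or pools. The p-values measure the spread between libraries of the same group, estimated jointly over all groups of an experiment, and that spread may be technical.

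Complement is a cascade of plasma proteins in which C3 and C5 convertases assemble on a surface and end in the membrane attack complex, a pore. CD55, or decay-accelerating factor, takes the convertases apart and is held in the membrane by a glycosylphosphatidylinositol (GPI) lipid anchor. CD46 and CRRY, the product of Cr1l, act as cofactors for the cleavage of bound C3b and C4b, and CRRY is the widely expressed regulator of mouse cells, whereas mouse Cd46 is known mainly from testis. CD59, also GPI-anchored, blocks the assembly of the pore. Mice carry tandem copies, Cd55b beside Cd55 and Cd59b beside Cd59a. CD55 also binds CD97, an adhesion receptor of leukocytes encoded by Adgre5.

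On GRCm38 (mm10), the build of the count tables, 3 of the members lie on chromosome 1. Cd55 (ENSMUSG00000026399) spans chr1:130439027-130462744 on the minus strand, and its copy Cd55b (ENSMUSG00000026401) lies next to it at chr1:130388537-130423009. Cd46 (ENSMUSG00000016493, chr1:195036826-195092249) and Cr1l (ENSMUSG00000016481, chr1:195097382-195131586) are neighbours on the same strand. Cd59a (ENSMUSG00000032679) is at chr2:104095801-104115354 on the plus strand, and Cd59b (ENSMUSG00000068686) at chr2:104069849-104091187.

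The stretches before the starts of Cd55 and Cd55b are shown because the copies stood far apart in level in every library. Both are the 250 bases upstream of the RefSeq start on GRCm38.p6, minus strand, chr1:130462745-130462994 for Cd55 and chr1:130423044-130423293 for Cd55b, with capitals for bases that are identical in their alignment.
Cd55: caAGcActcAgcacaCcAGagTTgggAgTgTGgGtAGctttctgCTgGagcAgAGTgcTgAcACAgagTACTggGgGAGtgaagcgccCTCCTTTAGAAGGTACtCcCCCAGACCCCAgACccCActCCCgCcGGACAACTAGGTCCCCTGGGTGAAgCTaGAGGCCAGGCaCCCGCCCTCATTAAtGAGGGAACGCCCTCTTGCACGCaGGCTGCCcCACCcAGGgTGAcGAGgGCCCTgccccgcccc
Cd55b: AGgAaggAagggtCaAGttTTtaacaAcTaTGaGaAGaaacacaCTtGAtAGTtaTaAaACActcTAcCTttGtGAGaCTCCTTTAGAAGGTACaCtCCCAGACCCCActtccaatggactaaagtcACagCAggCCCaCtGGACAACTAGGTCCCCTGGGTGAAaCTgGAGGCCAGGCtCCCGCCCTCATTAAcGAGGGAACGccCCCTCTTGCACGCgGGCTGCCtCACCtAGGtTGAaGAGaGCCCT
They were identical at 169 of 273 alignment columns (61.9%), including 80 of the last 100 bases before the Cd55 start. The 250-base upstream stretch of Cd55 had a GC content of 64.0%, against 51.6% for Cd55b, 56.8% for Cd46, 44.8% for Cd59a and 41.6% for Cr1l. On both strands, GGGCGG, the core of a GC box, was found 2 times in the Cd55 stretch and 1 time in that of Cd55b, and 32.7% of all such stretches in the RefSeq table held it. TTCNNNGAA, the core of the site that STAT factors bind, was found in none of the 5 stretches and in 7.02% of all. These matches describe letters in a short window and say nothing of binding.

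Levels were computed as RPKM, reads scaled to the exon length of the gene and the size of the library, which allows genes of different lengths to be compared within a library. The libraries held 11862089 to 66468883 counted reads. The trNK marker genes Ncr1, Klrb1c, Eomes and Itga1 were counted in every group, although their sum was not level between groups. Cd55 ranged from 6.44 to 214 RPKM over the 34 libraries (median 40.6) and Cr1l from 17.1 to 38.2 (median 25.2). Both ends of the Cd55 span lay in the subsets, which were sorted on CD55, so the 2 spans cannot be compared as such. Within the culture Cd55 spanned 1.24-fold and Cr1l 1.57-fold. In the time course the spans were 3.47-fold and 2.04-fold, and in gestation 4.18-fold and 1.5-fold. Cd59a ranged from 0 to 19.6 RPKM with a median of 0.77 and was at 0 in 4 libraries. Cd46 ranged from 0 to 2.6 RPKM with a median of 0.172. The tandem copies were near the limit of counting, with Cd55b at no more than 0.838 RPKM and Cd59b at no more than 1.84. How reads shared by such copies were counted is not stated, so these low values are uncertain. In bulk samples, fewer cells of a type and less RNA per cell cannot be told apart.

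**Figure D1:**
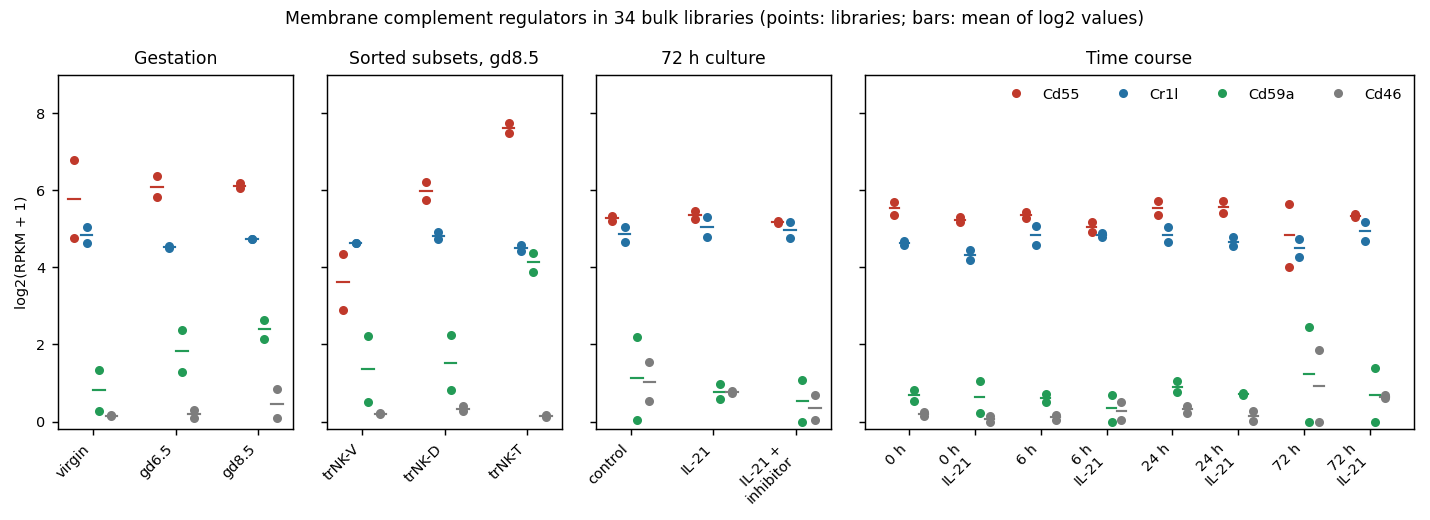
RPKM of the 4 regulators in each of the 34 bulk libraries as log2(RPKM + 1), by experiment and group, with points for libraries and bars for the mean of the log2 values. Cr1l lies between 17.1 and 38.2 RPKM, Cd55 spreads from 6.44 to 214 with the subsets at both ends, and Cd59a and Cd46 lie at the bottom except for Cd59a in trNK-T.

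Among the subsets, Cd55 RNA followed the sort. It was 6.44 and 19.4 RPKM in trNK-V, 52.9 and 72.6 in trNK-D, and 179 and 214 in trNK-T. No library of a subset overlapped with one of another, and the fitted level was 15.2-fold higher in trNK-T than in trNK-V (log2 difference 3.93), with steps of 2.29 from trNK-V to trNK-D and 1.63 from trNK-D to trNK-T. Of genes tested, 26.1% were higher without overlap in trNK-D than in trNK-V, 29.5% in trNK-T than in trNK-D and 36.6% in trNK-T than in trNK-V. The 2 trNK-V libraries differed 3.01-fold from each other, more than the pair of any other subset. Tnfrsf9, the other sort marker, was 200 and 138 RPKM in trNK-V, 465 and 507 in trNK-D, and 1170 and 1360 in trNK-T. As the cells were chosen by these proteins, these values describe the sort.

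Cr1l, which the sort did not use, showed no such steps. It was 23.7 and 23.9 RPKM in trNK-V, 29.1 and 25.7 in trNK-D, and 22.7 and 20.4 in trNK-T. The trNK-D libraries were the highest and those of trNK-T the lowest, over a range from 20.4 to 29.1 RPKM. Such a lack of overlap was common, with 26.1% of genes tested higher in trNK-D than in trNK-V. In trNK-T, 38.3% were lower than in trNK-V and 29.6% lower than in trNK-D. The log2 difference of trNK-T from trNK-V was -0.14 (SE 0.15, 95% interval -0.49 to 0.21, adjusted p = 0.477), that of trNK-D from trNK-V 0.21 (-0.14 to 0.57, adjusted p = 0.437), and that of trNK-T from trNK-D -0.35 (-0.71 to 0.00, adjusted p = 0.214), all by edgeR's quasi-likelihood test with Benjamini-Hochberg adjustment. Each interval lies within a 2-fold change in either direction.

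Cd59a, the inhibitor of the pore, was highest in trNK-T. It was 0.429 and 3.66 RPKM in trNK-V, 0.77 and 3.7 in trNK-D, and 13.8 and 19.6 in trNK-T. Both trNK-T libraries lay above all 4 others, while trNK-V and trNK-D overlapped and their replicates were far apart. Such a lack of overlap was common, with 36.6% of genes tested higher in trNK-T than in trNK-V and 29.5% higher than in trNK-D. The log2 difference of trNK-T from trNK-V was 3.03 (SE 1.07, 95% interval 0.49 to 5.57), 8.18-fold, and did not pass the threshold (adjusted p = 0.0652). From trNK-D it was 2.88 (0.38 to 5.39, adjusted p = 0.174), and trNK-D differed from trNK-V by 0.15 (-2.28 to 2.57, adjusted p = 0.946). Without trNK-V replicate 2 the difference from trNK-V was 5.34 and without replicate 1 it was 2.25, and that from trNK-D was 4.47 and 2.16 without trNK-D replicates 2 and 1. Cd59a entered this fit only through its level in trNK-T, so the tests on these filtered genes, DESeq2 and limma-voom included, give its difference no support. With filterByExpr, which asks for fewer reads, it was 3.22 from trNK-V and not called (adjusted p = 0.13).

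A call in edgeR needs a change of more than 2-fold with an adjusted p under 0.05. Over all genes tested, 21.3% were called between trNK-T and trNK-V, 1.75% between trNK-T and trNK-D, and 0.324% between trNK-D and trNK-V. Leaving out a library moved these shares. In fits of only the groups compared, the calls went from 985 to 1019, from 81 to 29 and from 15 to 6. Cd46 failed the filter in all experiments (RPKM above 10 in both libraries of a group). It was 0.136 and 0.169 RPKM in trNK-V, 0.316 and 0.214 in trNK-D, and 0.122 and 0.0887 in trNK-T, highest in both trNK-D libraries. In the filterByExpr fit 17.9% of genes were likewise higher in trNK-D than in trNK-V, and 27.5% lower in trNK-T than in trNK-D. In that fit Cd46 differed from trNK-V by 0.90 in trNK-D (adjusted p = 0.795) and by -0.34 in trNK-T (adjusted p = 0.879).

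Markers of other cells also moved across the subsets. The summed RPKM of 7 macrophage genes was 48.4 to 294 in trNK-V, 261 to 352 in trNK-D and 14.9 to 18.2 in trNK-T, where Csf1r was at 0. That of 5 stromal genes was 5.04 to 36.8 in trNK-V, 1.11 to 3.4 in trNK-D and 0.283 to 0.497 in trNK-T, where Hoxa10 was at 0. Both lists were lowest in trNK-T. That of 4 endothelial genes was 50.1 to 50.8 in trNK-T against 19.6 to 34.3 in the other subsets. Of these genes, Cdh5 and Egfl7 were at 0 in trNK-V, and Cdh5 and Kdr in trNK-D. The sum of 4 epithelial genes was 60.7 to 60.9 in trNK-T against 10.7 to 42.5, with Krt8 and Krt18 at 0 in trNK-T. The NK and lymphocyte lists were lower in trNK-T than in trNK-V. The sum of 4 trNK genes was 1380 to 1390 RPKM in trNK-V and 644 to 799 in trNK-T, and that of 8 conventional NK (cNK) genes 2170 to 2660 and 878 to 1020, with S1pr5 at 0 in trNK-T. Sums were also lower in trNK-T for 5 ILC1 genes (16.2 to 22.4 against 46.5 to 68.2, with Il7r at 0 in both) and 6 T cell genes (237 to 381 against 531 to 572, with Cd3e at 0 in trNK-T). The part of all these lists in the subset differences of Cd59a, Adgre5 and the genes below was not tested.

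**Figure D2:**
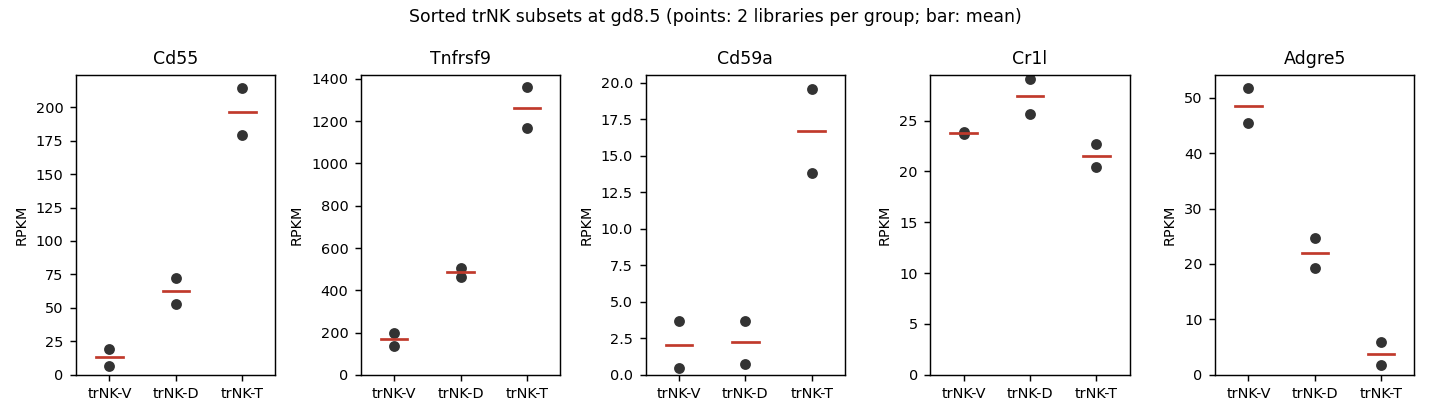
RPKM of Cd55, Tnfrsf9, Cd59a, Cr1l and Adgre5 in the sorted subsets at gd8.5, each on a linear axis from 0, with 1 point for each of 2 libraries and a bar at their mean. Cd55 rises at each step of the sort that used its protein, Cd59a lies at 13.8 and 19.6 in trNK-T, Cr1l stays between 20.4 and 29.1, and Adgre5 falls from 45.5 and 51.7 in trNK-V to 5.86 and 1.77 in trNK-T.

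Adgre5, the gene of the CD55-binding receptor CD97, ran opposite to Cd55 in the subsets. It was 45.5 and 51.7 RPKM in trNK-V, 24.6 and 19.3 in trNK-D, and 5.86 and 1.77 in trNK-T, with no overlap between subsets. Of all genes, 38.3% were lower without overlap in trNK-T than in trNK-V, 29.6% in trNK-T than in trNK-D and 27.5% in trNK-D than in trNK-V. Adgre5 was lower in trNK-T than in trNK-V by a log2 difference of -3.66 (SE 0.52, 95% interval -4.90 to -2.41, adjusted p = 0.0053), and this call was made under every alternative tried, with differences from -4.78 to -3.05. With filterByExpr it was -3.49 (adjusted p = 0.0179). The difference of trNK-T from trNK-D, -2.52 (SE 0.50), did not pass in edgeR (adjusted p = 0.0617). It did in DESeq2 (adjusted p = 1.9e-05) and in limma-voom (adjusted p = 0.0467). Adgre5 passed the filter only through trNK-V and trNK-D, so these tests on the filtered genes give its difference from trNK-D no support. With filterByExpr that difference was -2.45 and not called (adjusted p = 0.204). Between trNK-D and trNK-V it was -1.14 (adjusted p = 0.244). The cNK sum was lower in the same order, with 1450 to 1760 RPKM in trNK-D, and cNK-like single cells had the high Adgre5 level given further on.

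Across gestation, no difference in Cd55 was detectable at the spread of these libraries. Cd55 was 26.2 and 110 RPKM in virgin mice. It was 81.5 and 55.6 RPKM by gd6.5 and 71.3 and 65.7 by gd8.5. The 2 virgin libraries enclosed all 4 of the pregnant ones and differed 4.18-fold, so the group mean of 67.9 ± 59 RPKM (SD, n = 2) stands for neither. By their means the groups, 67.9 in virgin, 68.5 at gd8.5 and 68.6 at gd6.5, did not differ beyond their spread. The log2 difference from virgin was -0.07 at gd6.5 (95% interval -1.49 to 1.35, adjusted p = 0.95) and -0.05 at gd8.5 (-1.47 to 1.37, adjusted p = 0.976), and gd8.5 differed from gd6.5 by 0.02 (-1.40 to 1.44, adjusted p = 0.985). The spread in this fit was shared by all groups, so the interval of gd8.5 against gd6.5 also reflects the virgin libraries. Each direction of the differences from virgin rested on a single virgin library. Without virgin replicate 2 the difference at gd6.5 was 1.36 (adjusted p = 0.00768) and at gd8.5 1.37 (adjusted p = 0.0121), and without replicate 1 it was -0.74 (adjusted p = 0.0606) and -0.73 (adjusted p = 0.185). The same 2 virgin libraries also differed in Tnfrsf9 (123 and 751 RPKM) and in the number of genes counted (14879 and 16371). Their summed level of 6 erythrocyte genes was 12.8 to 224 RPKM, against 0.237 to 0.3 by gd6.5 and 0.251 to 844 by gd8.5. The authors counted virgin replicate 1 over a list of 55573 genes and replicate 2 over 54446, and only shared genes were used here. The part of these differences in the Cd55 values was not tested.

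Cr1l was 23.8 and 32.3 RPKM in virgin mice, 21.6 and 22.5 by gd6.5, and 25.5 and 25.6 by gd8.5. The virgin libraries lay above those at gd6.5, as was so for 24.2% of genes tested, and around those at gd8.5. The difference at gd6.5 was -0.43 (SE 0.17, adjusted p = 0.145) and at gd8.5 -0.20 (adjusted p = 0.609). Cd59a was 0.217 and 1.52 RPKM in virgin mice, 4.14 and 1.42 by gd6.5, and 3.45 and 5.21 by gd8.5. The gd8.5 libraries exceeded the virgin ones, as they did for 21.2% of genes in the filterByExpr fit. The log2 difference in that fit was 2.27 (95% interval -0.25 to 4.78) and did not pass (adjusted p = 0.528). Cd46 was at most 0.785 RPKM in all 6 libraries. Over all genes tested, 6.21% were called at gd6.5 against virgin, 0.337% at gd8.5 against virgin and 0% between gd8.5 and gd6.5. These shares depended on which libraries were fitted together, and leaving out a library moved them. In fits of only the groups compared, the 276 calls at gd6.5 became 0 and the 15 at gd8.5 became 17. Between gd8.5 and gd6.5 the calls went from 0 to 248. Adgre5 was 36.7 and 17.8 RPKM in virgin mice against 11.8 and 11.5 by gd6.5 and 17 and 5.69 by gd8.5, below the virgin libraries each time, as were 24.2% of all genes by gd6.5 and 18% by gd8.5, but the differences of -1.32 (adjusted p = 0.156) and -1.33 (adjusted p = 0.354) did not pass. They ran from -1.68 (adjusted p = 0.0383) without virgin replicate 2 to -0.68 without virgin replicate 1 at gd6.5. At gd8.5 they were -1.71 (adjusted p = 0.0485) and -0.70 without these libraries, and -2.33 and -0.76 without gd8.5 replicates 1 and 2. The sum of the 4 trNK genes was 1220 to 1240 RPKM in virgin mice, 710 to 741 by gd6.5 and 922 to 933 by gd8.5, and that of the 8 cNK genes 1670 to 1830, 968 to 1380 and 1610 to 1820. The endothelial sum was 13.8 to 29.3, 36.9 to 45.1 and 34.3 to 37.3 RPKM in these groups. Of its genes, Kdr was at 0 in virgin mice, and Cdh5 and Kdr by gd6.5. The epithelial sum was 9.5 to 30.6, 41.2 to 42 and 29.7 to 33.7. The part of these sums in the Adgre5 values was not tested.

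In the 3-day culture, which asked whether IL-21 acts on trNK cells through STAT3, Cd55 was nearly the same in all 6 libraries. It was 35.9 and 39.6 RPKM in the control, 42.8 and 37.4 with IL-21, and 35.7 and 34.5 with IL-21 and Stattic. The whole range, 34.5 to 42.8 RPKM, is 1.24-fold. The log2 difference of IL-21 from control was 0.27 (SE 0.29, 95% interval -0.41 to 0.96, adjusted p = 0.879), and that of the inhibitor from IL-21 alone was -0.09 (-0.78 to 0.59, adjusted p = 0.906). The inhibitor group differed from the control by 0.18 (-0.50 to 0.86, adjusted p = 0.802). Both inhibitor libraries lay below both controls in RPKM, as was so for 39.4% of genes tested, so the direction for Cd55 depends on the scaling. Called genes made up 0.293% of those tested for IL-21 against control, 3% for the inhibitor against IL-21 and 4.81% for the inhibitor against control, and leaving out a library moved these shares.

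Cr1l was 32.2 and 24.4 RPKM in the control, 38.2 and 26.7 with IL-21, and 26.1 and 34.9 with the inhibitor, and the 3 groups overlapped. Its difference for IL-21 was 0.39 (95% interval -0.41 to 1.19, adjusted p = 0.834) and for the inhibitor against IL-21 0.00 (-0.80 to 0.80, adjusted p = 0.996). Cd59a was 3.57 and 0.0303 RPKM in the control, 0.951 and 0.491 with IL-21, and 0 and 1.12 with the inhibitor. At such replicate spread no difference in Cd59a could be seen, and the interval for IL-21 ran from -7.36 to 5.14 on the log2 scale in the filterByExpr fit. Cd46 was 1.93 and 0.44 RPKM in the control, 0.723 and 0.683 with IL-21, and 0.0223 and 0.618 with the inhibitor, again overlapping.

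Adgre5 was 20 and 29.3 RPKM in the control, 4.11 and 5.69 with IL-21, and 10.5 and 8.46 with the inhibitor, with no overlap between the groups. Of all genes, 30.7% were lower without overlap for IL-21 against control, 20.1% higher for the inhibitor against IL-21 and 39.4% lower for the inhibitor against control. The difference of IL-21 from control was -2.16 (SE 0.42, 95% interval -3.13 to -1.18) and missed the threshold (adjusted p = 0.0908). Adgre5 passed the filter only through the control, so the tests on these filtered genes, the call by DESeq2 included, give its difference no support, and with filterByExpr it was -2.09 (adjusted p = 0.344). The difference of the inhibitor from IL-21 was 1.06 (adjusted p = 0.213). Tnfrsf9 was 289 and 211 RPKM in the control, 569 and 374 with IL-21, and 101 and 152 with the inhibitor, and its difference between inhibitor and IL-21, -1.80 (SE 0.38), missed the threshold (adjusted p = 0.0502). The other sort marker thus ranged more widely than Cd55 in the same 6 libraries. The sum of the 4 trNK genes was 966 to 1100 RPKM in the control, 313 to 367 with IL-21 and 228 to 234 with the inhibitor. That of the 8 cNK genes was 2090 to 2390 in the control, 1250 to 1520 with IL-21 and 1020 to 1170 with the inhibitor. The part of these shifts in the Adgre5 values, and in those of Cd160 below, was not tested.

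The time course gave the same picture for Cd55 at shorter times. Without IL-21 it was 51 and 40.2 RPKM at 0 h, 38.1 and 42.6 at 6 h, 51.9 and 40.1 at 24 h, and 49.3 and 15 at 72 h. With IL-21 it was 35 and 38.3 at 0 h, 35.3 and 29 at 6 h, 41.4 and 51.8 at 24 h, and 38.3 and 40.9 at 72 h. These values were not compared with those of trNK-V at gd8.5, as the kit and the gestation day differ. All libraries but 1 lay between 29 and 51.9 RPKM, and the exception was replicate 2 at 72 h without IL-21. In the order of means, from 32.1 ± 24.3 RPKM (SD, n = 2) at 72 h without IL-21 to 46.6 ± 7.38 at 24 h with IL-21, no neighbours differed beyond their spread.

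The log2 difference of Cd55 with IL-21 from the culture without was -0.24 at 0 h (95% interval -1.09 to 0.62, adjusted p = 1), -0.36 at 6 h (-1.22 to 0.49, adjusted p = 0.862), -0.08 at 24 h (-0.94 to 0.78, adjusted p = 0.964) and 0.31 at 72 h (-0.55 to 1.17, adjusted p = 0.672). Called genes made up 0%, 1.96%, 1.67% and 8.03% of those tested at these times. In fits of only the groups compared, the calls went from 68 to 233 at 6 h, 58 to 309 at 24 h and 279 to 4 at 72 h. The difference between the effects at 72 h and 6 h, 0.67 (-0.54 to 1.88), did not pass (adjusted p = 0.615), in a contrast that called 4.2% of genes. Against 0 h, Cd55 without IL-21 differed by -0.23 at 6 h (adjusted p = 0.998), 0.09 at 24 h (adjusted p = 0.982) and -0.14 at 72 h (adjusted p = 0.815), where 0%, 0.202% and 25.4% of genes were called. With IL-21 it differed from 0 h by -0.36 at 6 h (adjusted p = 0.66), 0.25 at 24 h (adjusted p = 0.984) and 0.41 at 72 h (-0.45 to 1.27, adjusted p = 0.511), where 2.76%, 0.115% and 12.7% were called. Comparisons with the same 0 h or 72 h libraries are not independent of each other.

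The values at 72 h turned on 1 library. Without replicate 1 of the 72 h group lacking IL-21, the effect of IL-21 on Cd55 at 72 h was 1.32 (adjusted p = 0.0106), the difference from 0 h without IL-21 was -1.16 (adjusted p = 0.0119), and the difference between the effects at 72 h and 6 h was 1.67 (adjusted p = 0.0118). Without replicate 2 these were -0.21 (adjusted p = 0.74), 0.40 (adjusted p = 0.341) and 0.14 (adjusted p = 0.899). The libraries of this group had counts in 10724 and 11665 genes, the fewest of all 34, and the part of that in the Cd55 values was not tested.

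Cr1l ranged from 17.1 to 34.9 RPKM over the 16 time-course libraries. With IL-21 it was 17.1 and 20.7 at 0 h and 34.9 and 24.9 at 72 h, the only time-course test of a member by edgeR with an adjusted p below 0.05 (log2 0.92, SE 0.20, 95% interval 0.49 to 1.36, adjusted p = 0.0116). This was 1.89-fold, short of the 2-fold limit, and over the alternatives the adjusted p ran from 6.49e-05 to 0.278. Without IL-21 it was 24.7 and 23 at 0 h and 25.7 and 18.4 at 72 h, a difference of 0.30 (adjusted p = 0.274). RPKM without IL-21 overlapped while the fitted difference was above 0, in a fit that scaled these 72 h libraries by factors of 0.86 and 0.735 and those at 0 h by 1.07 and 1.05. IL-21 at 72 h gave a difference of 0.36 (adjusted p = 0.285). At 0 h both libraries with IL-21 lay below both without it, as was so for 19.8% of genes tested. The rise from 0 h with IL-21 thus started from a lower level.

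Cd59a was at most 1.08 RPKM at 0, 6 and 24 h, and at 72 h it was 4.48 and 0 without IL-21 and 1.62 and 0 with IL-21. Cd46 was at most 0.417 RPKM up to 24 h, and at 72 h it was 2.6 and 0 without IL-21 and 0.521 and 0.604 with IL-21. The replicates without IL-21 at 72 h thus stood at both ends of each gene's range in the time course. The difference of Cd46 from 0 h without IL-21 was 3.31 in the filterByExpr fit, with an interval from -2.14 to 8.76 (adjusted p = 0.419). Adgre5 was at most 2.52 RPKM in all 16 libraries, at 0 and 0.123 RPKM at 6 h with IL-21 against 2.52 and 1.84 without (filterByExpr fit, log2 -5.21, adjusted p = 0.927).

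Over the gestation, culture and time-course experiments, Cd55 and Cr1l gave 34 tests, of which 0 were called by edgeR, DESeq2 or limma-voom. Over all genes these tools called up to 25.4%, 29.6% and 32.5% in a comparison, and each called 0% in at least 1. At an unadjusted p below 0.05 there were 2 of 34 in edgeR, beside 2.97% to 42.4% of all genes in a comparison.

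**Figure D3:**
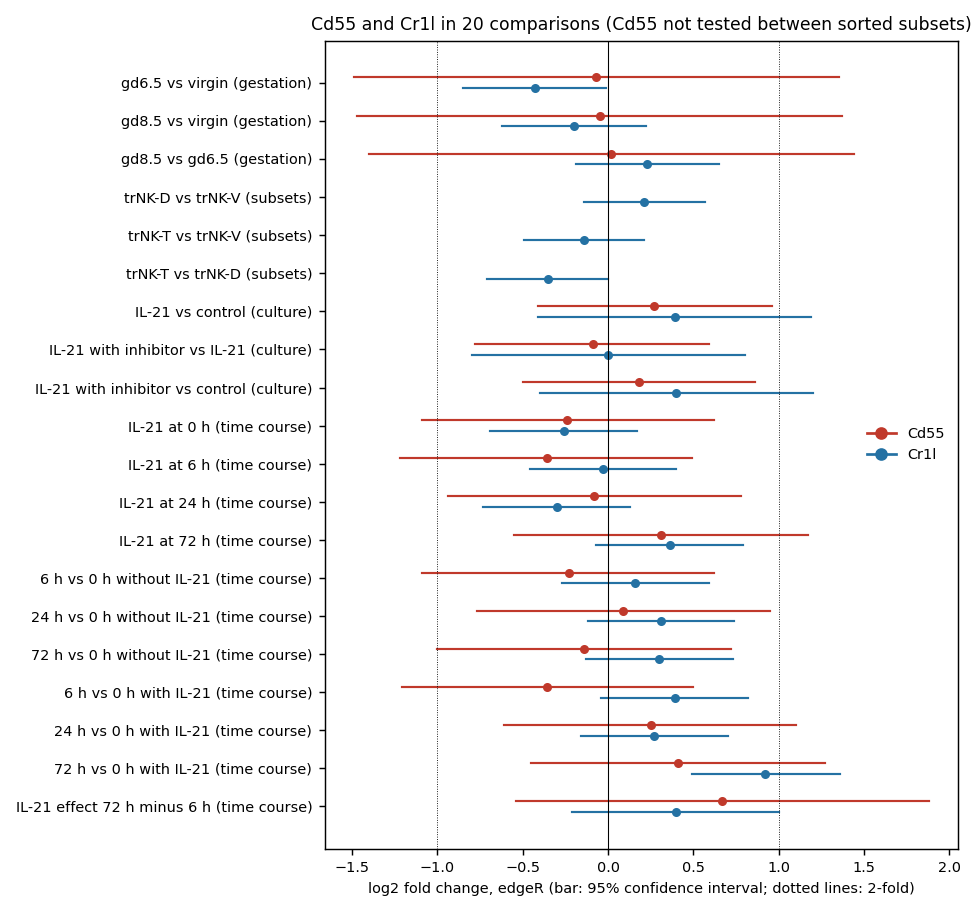
Log2 differences of Cd55 and Cr1l from edgeR in the comparisons of each experiment, with bars for the 95% interval and dotted lines at a 2-fold change. Cd55 is left out of the subset comparisons, since the sort used its protein, and the input that all culture groups shared was CD55-low. Every Cd55 interval drawn includes 0, and the Cr1l interval of 72 h against 0 h with IL-21 is 0.49 to 1.36.

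Of 24 complement components and 9 other complement regulators, 0 passed the filter in any experiment, which 3473 to 4631 of the 54353 genes did. Of 9 complement receptors, 3 passed, the integrin chains Itgax and Itgb2 of the C3 fragment receptors and C1qbp, a mitochondrial protein that binds C1q. Itgax was 83.6 and 105 RPKM in trNK-V and 18.7 and 3.93 in trNK-T, and fell by 3.05 on the log2 scale (SE 0.70, adjusted p = 0.0191). C1qbp was 49.1 and 45.9 RPKM in trNK-V and 118 and 126 in trNK-T, and rose by 1.36 (SE 0.17, adjusted p = 0.004). C1qbp was called under every alternative, and Itgax was not under filterByExpr or without either trNK-V library. Itgax did not pass the filter in trNK-T and was tested only through the other subsets, so its call gives no support. The median difference of the 3 receptors was -0.73, and that of all genes tested -0.01. With Itgax included, 2 of 3 were called, beside 21.3% of all genes. At 72 h, Itgb2 was 3.77 and 0.747 RPKM without IL-21 and 19.1 and 11.3 with it (log2 2.71, SE 0.71, adjusted p = 0.0374), and without IL-21 it had fallen by 2.38 from 0 h (adjusted p = 0.0249). With IL-21, Itgax fell by 1.59 at 6 h (adjusted p = 0.0353) and was 1.28 higher at 72 h (adjusted p = 0.03) than at 0 h, and its IL-21 effect at 72 h exceeded that at 6 h by 2.17 (adjusted p = 0.0293). Each of these time-course calls was lost in a fit of only the groups compared and with some library left out, with an adjusted p of up to 0.562 for Itgb2 and 0.312 for Itgax.

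Genes that build or attach the GPI anchor, by which CD55 and CD59 are held, were counted next. Of 28 such genes, 6 to 12 passed the filter in an experiment. Between trNK-T and trNK-V, Pigl, an enzyme of an early step, rose by 1.63 (SE 0.46, adjusted p = 0.0348) and Mppe1, which trims the finished anchor, fell by 1.65 (SE 0.26, adjusted p = 0.00662), and the list's median was -0.11. These were 2 of 12 genes tested, beside 21.3% of all genes. Mppe1 was called under every alternative. Pigl passed the filter only through trNK-T, so its call gives no support. It was not called under filterByExpr or without trNK-V replicate 1 or either trNK-T library. Under filterByExpr, which called 6.75% of genes in this comparison, Piga, of the first step, was called higher (1.96, adjusted p = 0.0337). Dpm1, of the mannose supply, was called lower there (-2.05, adjusted p = 0.0433). Pigp, a subunit of the enzyme of the first step, was lower at gd6.5 than in virgin mice (-1.03, adjusted p = 0.034), a call lost under 7 of 11 alternatives, among them filterByExpr, the fit of only these groups and leaving out either gd6.5 library or virgin replicate 2 (adjusted p up to 0.268). In the culture without IL-21, Pigp (1.58, adjusted p = 0.0144) and Dpm3 (1.02, adjusted p = 0.0181), a subunit of the enzyme that supplies mannose, were higher at 72 h than at 0 h, and both calls were lost under filterByExpr and without either 0 h library, that of Dpm3 also without either 72 h library. These 72 h calls stood beside 25.4% of all genes called in that comparison, and that of Pigp at gd6.5 beside 6.21%. In the 3-day culture 0 of 9 genes tested were called, beside 0.293% to 4.81% of all genes.

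Among 9 other GPI-anchored surface proteins, 5 passed the filter in the subset experiment. Cd160, an activating NK receptor, was 181 and 175 RPKM in trNK-V and 19.2 and 37.3 in trNK-T, and fell by 2.66 (SE 0.33, adjusted p = 0.00403). In the 3-day culture Cd160 was 84.9 and 54 RPKM in the control, 25 and 30.9 with IL-21 and 1.49 and 1.28 with the inhibitor, with log2 differences of -5.36 from the control (SE 0.43, adjusted p = 0.00284) and -4.23 from IL-21 alone (SE 0.41, adjusted p = 0.00653). The difference from the control was called under every alternative, and that from IL-21 alone was lost under filterByExpr and without either inhibitor library. Cd160 did not pass the filter in the inhibitor group, so the call against IL-21 alone gives no support. In the time course Cd160 was higher at 72 h than at 0 h without IL-21 (1.13, adjusted p = 0.00637) and with it (1.68, adjusted p = 0.00172). The call without IL-21 was lost under 5 of 11 alternatives, among them filterByExpr and leaving out replicate 2 at 0 h or replicate 1 at 72 h (adjusted p up to 0.0831), and that with IL-21 under 1, the fit of only the groups compared (adjusted p = 0.0786). Ly6e, a small surface protein of the Ly6 family, was higher with IL-21 at 72 h (1.28, SE 0.19, adjusted p = 0.00196), but not in the fit of only the groups compared (adjusted p = 0.562). In trNK-T against trNK-V 1 of 5 genes tested was called, beside 21.3% of all genes, and their median was -0.14. For IL-21 at 72 h it was 1 of 5, beside 8.03%, and for 72 h against 0 h 1 of 5 both without IL-21, beside 25.4%, and with it, beside 12.7%. The cNK sum was 2250 to 2320 RPKM at 0 h and 3830 to 4300 at 72 h without IL-21, and 2250 to 2290 and 3570 to 3960 with it. At 6 h with IL-21, where Itgax was lower, the cNK sum was 1350 to 1370. The trNK sum with IL-21 was 1010 to 1170 RPKM at 0 h and 577 to 617 at 6 h. The ILC1 sum was 14.6 to 17 RPKM at 0 h and 25.8 to 108 at 72 h without IL-21, and 11.8 to 24.2 and 107 to 142 with it. The part of these sums and of the low number of genes counted at 72 h without IL-21 in the list genes of the time course was not tested.

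Under filterByExpr, which called 5.07% of genes for IL-21 at 72 h, 3 more list genes were called higher there, all under 10 RPKM. Pgap2, which remodels the anchor, was 0.471 and 0.323 RPKM without IL-21 and 4.29 and 3.64 with it (log2 3.23, adjusted p = 0.015). Itgam, a chain of a C3 fragment receptor, was at 0 in both libraries without IL-21 and at 0.979 and 3 RPKM with it (adjusted p = 0.0464). Nt5e, a GPI-anchored ectoenzyme, was at 0 in both without IL-21 and at 1.3 and 0.0244 RPKM with it (adjusted p = 0.0288). Nt5e was also called lower at 72 h than at 0 h without IL-21 (0.343 and 0.33 RPKM at 0 h, adjusted p = 0.0224). In that comparison filterByExpr called 11.7% of genes. The higher Nt5e with IL-21 rests on 1 library, the calls of Itgam and Nt5e are against libraries at 0, and no alternative was run for these filterByExpr calls.

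The genes whose levels ran most like Cd55 were found by the Pearson correlation of group means of log2(CPM + 1), centred within each experiment, over the 17 bulk groups and 6381 genes. They were Mt1, a metallothionein (r = 0.878), Cnih1, a cargo receptor of the secretory pathway (0.862), Tmem171 (0.844), Ostc, a subunit of the oligosaccharyltransferase (0.805), and Gzmf, a granzyme (0.795). Tnfrsf9 ranked 28 with r = 0.687, and Cr1l had r = -0.0694. These values describe group means that share libraries, and the subset groups, chosen by CD55, carry most of the Cd55 range. Gzmf was 0.353 and 27.7 RPKM in trNK-V, 402 and 529 in trNK-D, and 3520 and 3350 in trNK-T. Mt1 was 16 and 23.7 RPKM in trNK-V, 357 and 241 in trNK-D, and 970 and 481 in trNK-T. Both rose at each subset without overlap, as Cd55 did, and over a wider range. They were picked for running like Cd55 over groups that include these subsets, so this shared rise is no support. Of genes tested, 26.1% were higher without overlap in trNK-D than in trNK-V and 29.5% in trNK-T than in trNK-D. The genes running most opposite were Mfsd6 (r = -0.92) and Klrk1, which encodes the receptor NKG2D (-0.907).

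The single-cell data were deposited as 2 tables, labelled virgin and gd8.5. They held the same 15175 cell barcodes in the same order and had no gene in common, with 6821 and 28416 genes, so they were joined as 1 pooled sample in which cells of virgin and gd8.5 mice could not be told apart. No test was made, and intervals are exact 95% Poisson intervals of summed UMIs that cover counting error only. After limits of 200 to 2500 genes per cell and a mitochondrial share below 10%, 8907 cells remained. Of these, 4150 cells in 6 clusters were trNK-like by their markers. The members, the lists and Tnfrsf9 were left out of the clustering. Cluster names were rebuilt here, and doublets were not removed.

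Levels in single cells are given as CPM, the UMIs of a gene scaled to a common total over the same cells. In trNK-like cells Cd55 had 254 CPM (246 to 263) and Cr1l 178 (171 to 185), and the other members were scarce. The interval of Cd55 does not cover the choice of cells, which moved it from 162 to 545 CPM over 4 other settings. Cd59a had 7.94 CPM from 113 UMIs and Cd46 had 1.69 from 24, in 14236097 UMIs. Cd55b was seen as 1 UMI and Cd59b as 21. The order Cd55, Cr1l, Cd59a, Cd46 was that of the median bulk levels, although UMI counts are not divided by gene length. Adgre5 had 52.3 CPM and Tnfrsf9 1057.

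Cd55 differed more among the trNK-like clusters than Cr1l did. It was 419 CPM (402 to 436) in the 1238 cells led by Gzmc and Gzmf, 196 (178 to 215) in the 500 cells led by the division genes Pclaf and Ube2c, and 137 (124 to 152) in the 965 cells led by Cox6a2 and Ier5l. The cells led by Hspb1 and Cited4 had 131, those led by Gm26917 had 121, and the 82 cells led by the interferon-response genes Cxcl10 and Ifit1 had 49.6 (23.8 to 91.2). Cr1l was between 151 and 198 in all 6 clusters. Cd59a was 13.7 (10.8 to 17.1) in the granzyme-led cluster against 1.4 in the Cox6a2-led one, and Adgre5 ran the other way, with 12.1 against 97.4. Of the 6 trNK-like clusters, the one with the most Cd55 thus had the most Cd59a and the least Adgre5, with no replicate to test it.

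The highest Cd55 of all, 516 CPM (495 to 539), was in 764 cells led by Mt2, Scin and Ctsg that the markers did not name. They met the trNK-like criterion for 2 of the 4 genes, Eomes and Itga1, had Gzmg among their leading 10 genes and met that of no other class, and their levels are not in the trNK-like values above. These cells also had 35.4 CPM of Cd59a (29.9 to 41.6), 69.3 of Cr1l and 1.67 of Adgre5. Their median of 5721 UMIs per cell exceeded that of every cluster named above, and its part in these levels was not tested. Their Cr1l level was the lowest of all 17 clusters, so the cluster with the most Cd55 had the least Cr1l.

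Outside NK cells, Cd55 was 370 CPM (324 to 420) in 305 B-like cells, 216 (179 to 258) in 259 T-like cells, 132 (104 to 166) in 214 stromal-like cells and 34.1 (27.6 to 41.7) in 881 macrophage-like cells. Conventional-NK-like cells (1028) had only 63.3 (52.6 to 75.6), with the high Adgre5 level of 461 (432 to 493) and Cr1l at 218 (198 to 240). Cd55 RNA was therefore not particular to trNK-like cells in this matrix. Stromal-like cells had 47.7 CPM of Cd59a (31.4 to 69.3) and B-like cells had 0, which allows up to 5.85. The cells were sorted for NK1.1 and NKp46, so the B-, T-, stromal- and macrophage-like cells are those that passed that sort, and their levels cannot be read as those of the tissue.

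**Figure D4:**
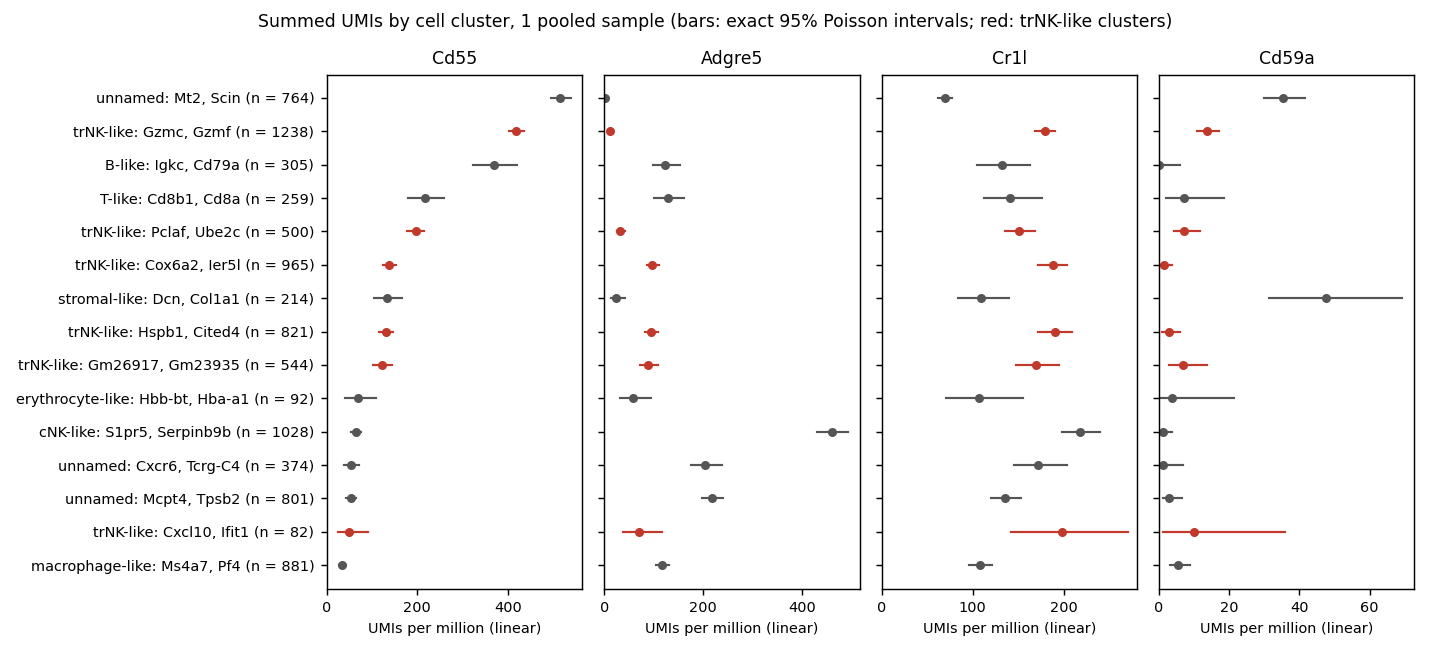
CPM of Cd55, Cr1l, Cd59a and Adgre5 in the clusters of at least 50 single cells on linear axes, with bars for exact 95% Poisson intervals and clusters labelled by their name and leading genes. Cd55 falls from 516 in the unnamed Mt2-led cluster and 419 in the granzyme-led trNK-like cluster to 34.1 in macrophage-like cells, while Cr1l lies between 151 and 198 in the trNK-like clusters.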

How the data were processed

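Sorted trNK cells were lysed directly in SMART-Seq HT reagents, amplified by PCR and sequenced in pairs, except the time course, whose labels name a Vazyme kit, and comparisons were made within experiments only. The authors aligned reads to mm10 with HISAT2 2.1.0. The submitters' processing notes name featureCounts (Subread) and the study's methods name RSEM. For bulk libraries the authors deposited whole-number read counts with exon lengths, not normalized. For single cells they deposited UMI counts made by the BD Rhapsody pipeline on GRCm39, also not normalized.

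RPKM were computed from these counts over the 54353 genes shared by all bulk tables, which hold at least 99.897% of each library. As in the study's methods, a gene was tested if some group had more than 10 RPKM in each library (3473 to 4631 genes per experiment). Members failing that were read from a fit after edgeR's filterByExpr and named as such. Each experiment was fitted once with edgeR 4.0.16 (TMM scaling, quasi-likelihood test, no covariates, R 4.3.3), and p-values were adjusted over all genes tested by Benjamini-Hochberg. A call needed more than a 2-fold change with an adjusted p under 0.05. Gestation had a common biological coefficient of variation of 0.253, the subsets 0.247, the culture 0.358 and the time course 0.413 at 11862089 to 66468883 counted reads per library. Intervals are 95% intervals of the log2 difference from the fit. DESeq2 1.42.0 and limma-voom 3.58.1 were alternatives. Running the alternatives for called list genes was chosen after seeing the data. The fits were tested on simulated counts.

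Single cells were clustered with scanpy 1.11.5 (20 components of 2000 variable genes, 20 neighbours, resolution 0.8). The study states limits of 200 and 2500 on UMIs per cell, which were read as genes per cell because the literal limits left 4338 cells. A class needed 3 markers at 3-fold above other cells with at least 10 UMIs and 1 in the top 10 genes, and the trNK-like class needed Itga1 and at least 3 of its 4 genes at 2-fold the B-like level.

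The members, lists, markers and naming thresholds were chosen with earlier results of these data known. Genes named in the text are the members, called list genes, and the 5 genes most like Cd55, with the opposite genes added after their values were seen. Same-numbered libraries deviated together (correlation above 0.1) in 1 of 3 pairs of groups for gestation and 2 of 3 for the subsets, with r up to 0.411. They did so in 1 of 3 for the culture and 11 of 28 for the time course. The labels name no shared source, and the numbers were not taken as pairs. This check does not exclude a pairing, and fits with a replicate block are given below. The treatment protocol gives 15 ng/mL IL-15 for the time course, unlike the labels, and the study's methods give 1 mM Stattic where the labels give 1 µM. The chromatin accessibility samples were not analysed here.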

Additional observations from a re-analysis of the deposited data

How the results depend on the processing

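Cd55 changed with the library left out where a pair of replicates was far apart. Leaving out each library in turn moved its log2 difference from -0.74 to 1.36 for gd6.5 against virgin, -0.73 to 1.37 for gd8.5 against virgin, -0.21 to 1.32 for IL-21 at 72 h, -1.16 to 0.40 for 72 h against 0 h without IL-21 and 0.14 to 1.67 for the IL-21 effect at 72 h minus 6 h. The high ends of the gestation ranges, without virgin replicate 2, and the values without replicate 1 at 72 h passed the test. In the other 12 Cd55 comparisons no alternative crossed the threshold. The number of Cd59a and Cr1l calls for trNK-T against trNK-V rose from 0 to 1 (Cd59a, which passed the filter only through trNK-T) under DESeq2, limma-voom, no filter (log2 3.22, adjusted p = 3.35e-05), the replicate block and a fit of only the groups compared (3.04, adjusted p = 0.0468). For trNK-T against trNK-D it rose from 0 to 1, again Cd59a, under DESeq2 (2.90, adjusted p = 0.0363) and no filter (2.92, adjusted p = 0.000522). The replicate block, for which the labels name no shared source, gave Cd59a 3.66 (adjusted p = 0.0114) for trNK-T against trNK-V and Adgre5 -2.63 (adjusted p = 0.0396) for trNK-T against trNK-D, and lost the calls of Pigp at gd6.5 and Itgb2 for IL-21 at 72 h. It changed no other call of a member and lost no other call of a listed gene. Over all genes it cut the calls from 276 to 2 for gd6.5 against virgin, 15 to 0 for gd8.5 against virgin, 12 to 1 for IL-21 against control, 123 to 7 for the inhibitor against IL-21 and 197 to 55 for the inhibitor against control, and raised them from 15 to 25 for trNK-D against trNK-V and 81 to 151 for trNK-T against trNK-D. Adgre5 for IL-21 against control was called by DESeq2 and with no filter (-2.10, adjusted p = 0.0132). Its falls from virgin were called with no filter and without virgin replicate 2, as was its difference of trNK-D from trNK-V with no filter (-1.02, adjusted p = 0.00587), and that of trNK-T from trNK-D with no filter and without trNK-T replicate 1 (-3.64, adjusted p = 0.0222). Cd55 in trNK-like cells was 162 CPM with 200 to 2500 UMIs per cell, 545 with no upper limit, 177 at a resolution of 0.4 and 283 with 3000 variable genes, against 254, so this level depends on which cells are kept. The cause of these changes was not tested. Over all genes, summed over the 20 comparisons, edgeR made 3685 calls, DESeq2 6693, limma-voom 4395, filterByExpr 4178, no filter 11888, the replicate block 3184 and fits of only the groups compared 2889.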
